A study of Caenorhabditis elegans with 2 samples.

Results

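The genes of the cytosolic ribosome of Caenorhabditis elegans were taken as the protein-coding genes of the Ensembl WBcel235 annotation whose names start with rpl-, rps- or rla-. The rule found 81 of 19973 protein-coding genes: 47 large subunit genes (rpl-), 31 small subunit genes (rps-) and 3 genes of the acidic stalk of the large subunit (rla-). A gene was said to have a region in its promoter where the region's summit, its highest point, lay from 1000 bp upstream to 200 bp downstream of the start of one of its protein-coding transcripts.

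The regions come from chromatin immunoprecipitation and sequencing (ChIP-seq) of ZIP-4, one of the worm's basic leucine zipper (bZIP) proteins, in whole first-stage (L1) larvae of mixed sex that were starved after bleaching and were 6 hours old. The strain, OP590, carries the mutation unc-119(tm4063) and the transgene wgIs590, which joins TY1, EGFP and 3xFLAG to zip-4 and also holds unc-119(+) to rescue the mutation. The tagged protein was pulled down through GFP. There was 1 group with 2 biological replicates, and both were set against the same control alignment. No untagged strain and no fed larvae were among the samples, so signal that an untagged strain would also give cannot be told apart from signal of ZIP-4, and nothing can be said of a change with starvation.

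Ribosomes are built from RNA and from proteins that cells make in nearly equal numbers, so the genes of both subunits are usually transcribed together at high levels. Making ribosomes is one of the largest costs of a growing cell, and worms that hatch without food stop growing as L1 larvae. Factors of the bZIP family bind DNA as dimers, and those of the C/EBP type favour words of the kind TTGCNNAA or TTACNNAA (N stands for any base).

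Of the 81 ribosomal protein genes, 38 had a peak of the authors' optimal set in the promoter, which is 46.9% (95% Clopper-Pearson interval 35.7 to 58.3), beside 5.70% of all protein-coding genes. The optimal set holds the 1290 peaks that the authors kept by the irreproducible discovery rate method. Large and small subunit genes had similar shares, with 22 of 47 (46.8%, 32.1 to 61.9) and 16 of 31 (51.6%, 33.1 to 69.8), and the intervals overlap widely. Among the 3 stalk genes, 0 had an optimal peak, which with so few genes still allows a share of up to 70.8%. Intervals cover counting over genes only, because genes are not replicates of a condition.

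The 38 genes held 36 distinct peaks, since 2 peaks each lay between a pair of ribosomal protein genes that point away from each other. The sequences around some of these summits are shown first, picked for the words they hold or lack and not as typical of the 36. The word ACACTCG, itself picked from these windows, was in 11 of the 36 peaks, and a C/EBP type word in 4. Each is the 101 bases around a summit on assembly ce11 (WBcel235), read 5′ to 3′ on the strand of the ribosomal protein gene from the RefSeq copy of that assembly. The first 7 hold the word ACACTCG, which on the opposite strand reads CGAGTGT, and the capitals mark it.
rpl-3, chrIII:3867523-3867623, + strand: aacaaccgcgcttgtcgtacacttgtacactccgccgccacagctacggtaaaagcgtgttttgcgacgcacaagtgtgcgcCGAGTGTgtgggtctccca
rpl-20, chrIV:4750026-4750126, - strand: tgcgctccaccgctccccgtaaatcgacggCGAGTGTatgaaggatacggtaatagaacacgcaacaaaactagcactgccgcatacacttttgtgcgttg
rpl-15, chrIV:654875-654975, - strand: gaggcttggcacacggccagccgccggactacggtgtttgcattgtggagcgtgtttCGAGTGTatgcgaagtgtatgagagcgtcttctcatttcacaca
rpl-22, chrII:5055311-5055411, + strand: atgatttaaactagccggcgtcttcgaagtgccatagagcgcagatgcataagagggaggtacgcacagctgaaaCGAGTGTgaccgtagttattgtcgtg
rpl-29, chrIV:13881900-13882000, + strand: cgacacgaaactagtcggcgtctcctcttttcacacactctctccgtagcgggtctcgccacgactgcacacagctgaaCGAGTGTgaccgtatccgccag
rpl-6, chrIII:7208038-7208138, + strand: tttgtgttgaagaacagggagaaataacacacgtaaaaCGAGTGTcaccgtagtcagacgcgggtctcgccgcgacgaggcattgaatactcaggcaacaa
rps-29, chrIII:793741-793841, + strand: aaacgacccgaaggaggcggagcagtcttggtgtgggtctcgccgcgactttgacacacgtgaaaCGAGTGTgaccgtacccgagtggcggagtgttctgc

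In rpl-22, rpl-29, rpl-6 and rps-29 the end of CGAGTGT is also the start of the word GTGTNACCG, with which it shares GTGT. The next 3 sequences are the printed ones with a C/EBP type word near the summit, marked in capitals. At rpl-28 the word is TTGCCAAA on the opposite strand, so the printed strand reads TTTGGCAA.
rpl-35, chrIII:7854635-7854735, + strand: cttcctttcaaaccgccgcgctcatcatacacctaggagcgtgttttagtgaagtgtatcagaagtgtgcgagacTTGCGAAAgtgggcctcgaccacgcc
rpl-43, chrII:14154497-14154597, + strand: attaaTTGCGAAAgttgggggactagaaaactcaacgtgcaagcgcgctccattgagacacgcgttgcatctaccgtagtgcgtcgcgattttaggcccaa
rpl-28, chrV:12728408-12728508, - strand: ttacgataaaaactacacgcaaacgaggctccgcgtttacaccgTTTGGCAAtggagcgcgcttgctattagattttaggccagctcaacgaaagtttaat

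The last sequence is from the strong small subunit peak of rps-12 and holds neither word.
rps-12, chrIII:5679090-5679190, + strand: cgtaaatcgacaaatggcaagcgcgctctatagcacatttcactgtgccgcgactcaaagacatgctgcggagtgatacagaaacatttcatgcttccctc

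The large subunit gene rpl-3 had the strongest peak of all the ribosomal protein genes. It encodes a protein that reaches close to the peptidyl transferase centre. The signal value, a deposited number whose scale is not stated, was 1172 for the pooled reads, with 748.0 in replicate 1 and 416.8 in replicate 2, and the pooled rank was 12 (rank 1 is the strongest of 30000 regions). The next 3 were also large subunit genes. At rpl-20 the signal value was 917.2 pooled, 597.2 in replicate 1 and 321.4 in replicate 2. At rpl-35 it was 792.8 pooled, 477.0 in replicate 1 and 319.9 in replicate 2. At rpl-15 it was 706.7 pooled, 415.2 in replicate 1 and 293.2 in replicate 2. All of these ranked within the first 50 regions of every list: rpl-20 at 21, 21 and 17, rpl-35 at 25, 30 and 20, and rpl-15 at 33, 44 and 25 (pooled, then the replicates in order).

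A second tier began with rpl-12, whose protein sits at the base of the stalk, at 537.7 pooled, 347.0 in replicate 1 and 191.3 in replicate 2. The strongest small subunit gene, rps-1, followed with 530.1 pooled, 339.0 in replicate 1 and 190.5 in replicate 2. The small subunit genes rps-12 and rps-19 had 481.1 and 409.4 pooled, with 307.3 and 257.0 in replicate 1 and 175.0 and 158.5 in replicate 2. In humans, loss of a copy of RPS19 causes Diamond-Blackfan anaemia. Between rps-12 and rps-19 stood rpl-24.2 at 411.6 pooled, 264.1 in replicate 1 and 143.6 in replicate 2. Its human counterpart, RSL24D1, is a factor of ribosome assembly, so this gene belongs to the set by its name and not as a part of the mature ribosome. The last of the 12 strongest were rpl-7A at 320.0, rps-15 at 287.3 and rps-28 at 252.3 pooled, with 193.9, 175.0 and 172.4 in replicate 1 and 120.8, 113.8 and 82.83 in replicate 2. The upper end of the ranking held mostly large subunit genes, which were also the larger part of the genes with a peak (22 large and 16 small). Of the 8 ribosomal protein peaks among the strongest 100 optimal peaks, 6 were at large (rpl-24.2 among them) and 2 at small subunit genes. Among the strongest 500 stood 13 of the 22 large and 9 of the 16 small subunit genes. The medians over all peaks were close (183 for large and 173 for small).

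Over the 36 peaks the pooled signal value ran from 80.27 at rpl-28 to 1172 at rpl-3, with a median of 183 and quartiles of 121 and 342. The 838 optimal peaks in promoters of other genes alone had a median of 142 and quartiles of 101 and 223. Of the 36 ribosomal protein peaks, 8 (22.2%) were among the strongest 100 optimal peaks and 21 (58.3%) among the strongest 500, beside 7.88% and 42.6% of the 838 others. The lowest signal value in the optimal set was 79.97, so rpl-28 was only just inside it. Just outside were rpl-21 at 79.0 (rank 1308), rps-6 at 72.1, rps-17 at 69.6, rpl-39 and rps-30, which share a region at 69.5, and rpl-4 at 63.1. With a deposited q-value of 0.05 or less in place of the optimal set, rpl-21 was added and the count became 39 of 81 (48.1%), beside 6.21% of all genes.

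**Figure D1:**
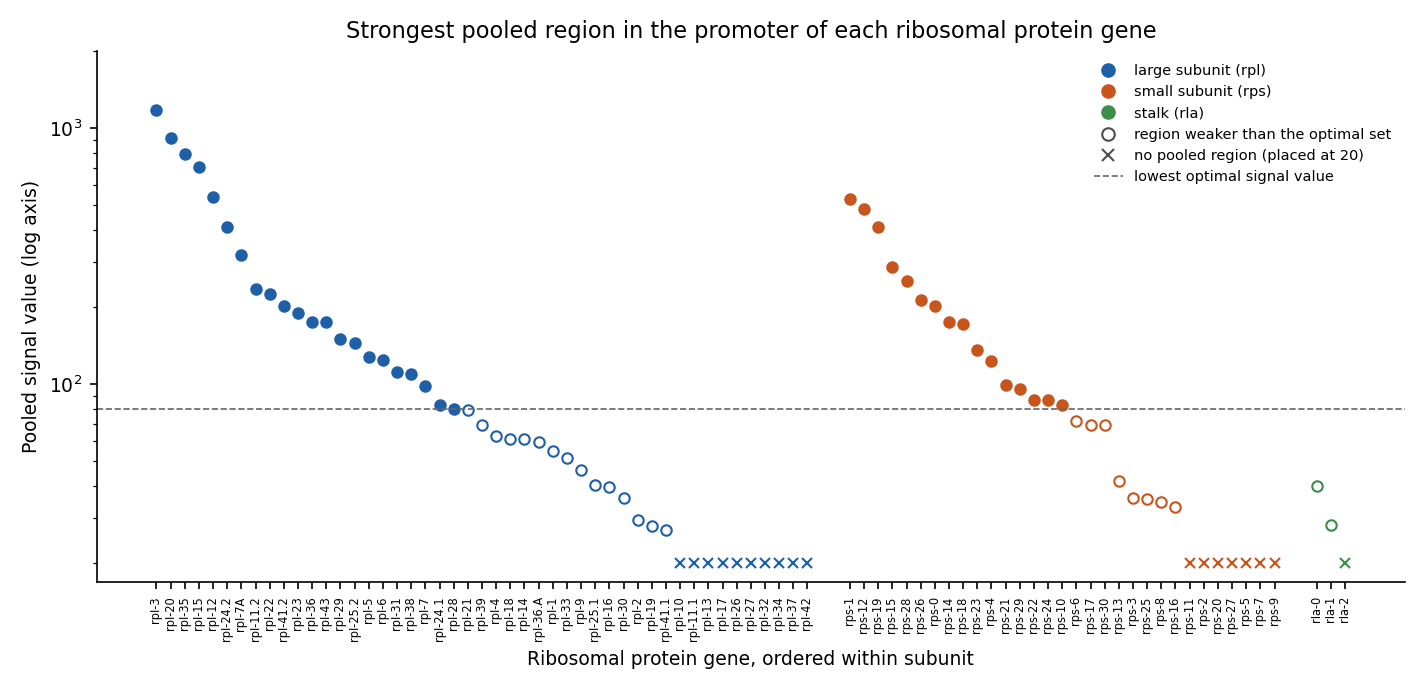
Pooled signal value (log axis) of the strongest region in the promoter of each of the 81 ribosomal protein genes, ordered within large subunit, small subunit and stalk. Filled points are optimal peaks, open points weaker regions, crosses genes with no pooled region (drawn at 20, which is no value), and the dashed line is the lowest optimal signal value, 79.97. Signal values fall without a step across that line in the large subunit.

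All 36 peaks had a summit within 100 bp in each replicate's list. Of them, 34 were among the strongest 1290 regions of replicate 1, 29 of replicate 2 and 27 of both, which is 75.0% beside 71.0% of the other promoter peaks. Signal values of the replicates went together over the 36 peaks (Spearman 0.899, Pearson 0.928 on log2 values), as a description of peaks that share their libraries and their control. The exceptions were weak peaks that stood much higher in replicate 1. At rpl-7 the signal value was 82.56 in replicate 1 (rank 707) and 16.0 in replicate 2 (rank 13222). The peak between rpl-24.1 and rps-10 ranked 1077 in replicate 1 and 3881 in replicate 2. The peak of rps-29 ranked 943 and 2623. In the other direction, rpl-43 ranked 760 in replicate 1 and 234 in replicate 2. With the strongest 1290 regions of replicate 2 alone, 32 ribosomal protein genes had a peak, and with those of replicate 1 alone, 36.

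**Figure D2:**
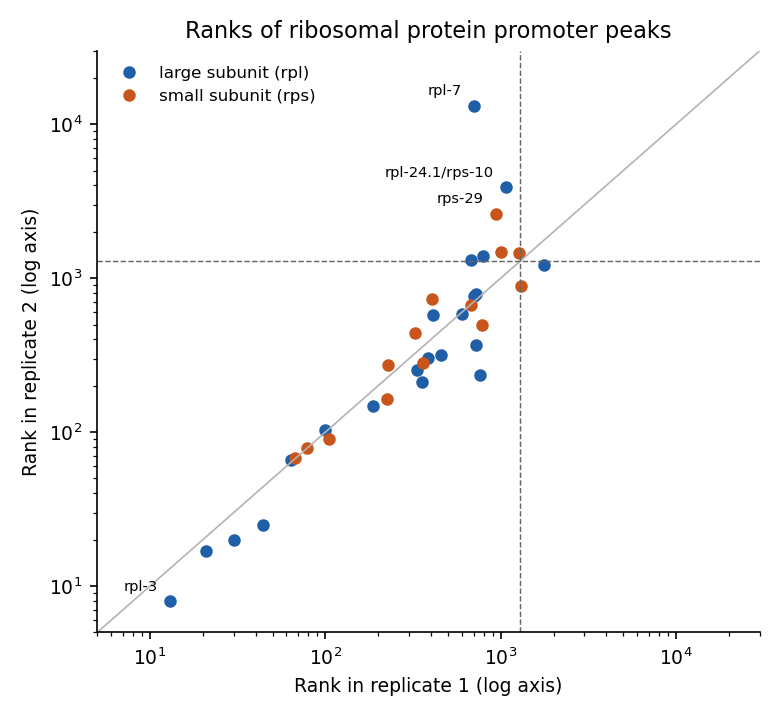
Rank of each of the 36 ribosomal protein promoter peaks in replicate 1 and in replicate 2 (both log axes, rank 1 strongest), with equal ranks on the grey line and rank 1290 dashed; a peak shared by 2 of the genes is drawn once in the colour of the first. Most points follow the line, and rpl-7, rpl-24.1/rps-10 and rps-29 lie above it with worse ranks in replicate 2.

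The summits stood at a narrow range of distances. All 38 genes had the summit upstream of the nearest start, at a median of 297 bp (quartiles 258 and 391), from 13 bp at rpl-12 to 747 bp at rpl-43. In 32 of the 38 genes (84.2%) the summit lay 150 to 450 bp upstream, beside 44.5% of the 1100 other genes with an optimal peak, whose median was 231 bp upstream with quartiles of 123 and 436. This distance class was chosen after the values were seen. Large and small subunit genes had medians of 298 and 292 bp, which differ by far less than the spread of either (quartiles 255 and 386 for large, 264 and 388 for small). Measured to the start codon, the median was 305 bp. Among the strongest peaks, rpl-3 had its summit 281 bp, rps-1 263 bp, rps-19 282 bp and rpl-20 298 bp upstream. At rpl-15 it lay 349 bp, at rps-15 373 bp, at rps-28 445 bp and at rpl-35 449 bp upstream. Nearer were rps-12 at 158 bp, rpl-24.2 at 154 bp, rpl-7A at 71 bp and rpl-12 at 13 bp. In C. elegans many transcripts lose their first bases by trans-splicing, so annotated starts can lie downstream of the true ones, and the distances are to annotated starts. Of the 36 summits, 34 were intergenic, 1 lay in an intron (that of rpl-24.2, in the neighbouring gene C03D6.1) and 1 in a 5′ untranslated region (the peak of rps-18, inside that of sec-61.A).

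**Figure D3:**
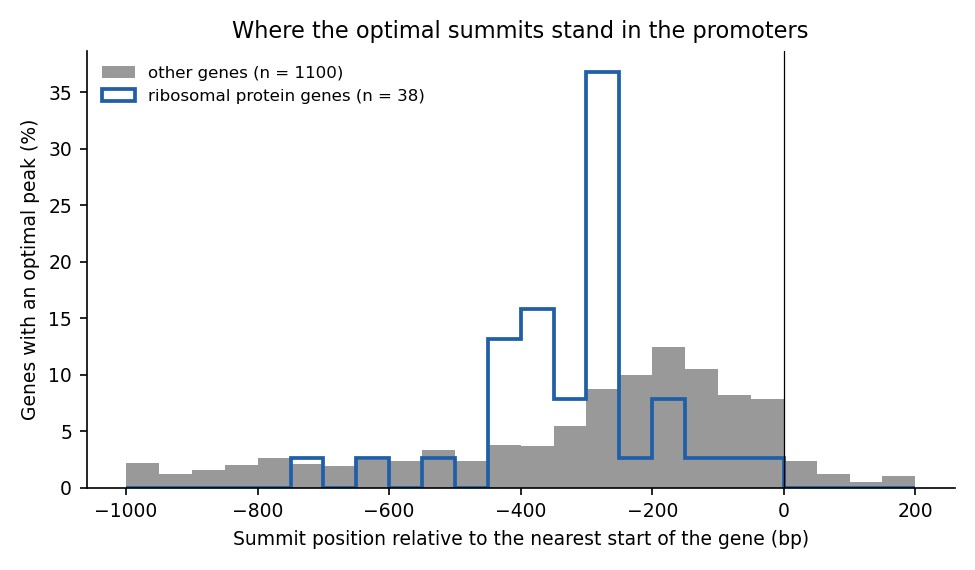
Position of the optimal summit relative to the nearest annotated start in classes of 50 bp, as the percent of the 38 ribosomal protein genes (line) and of the 1100 other genes with an optimal peak (grey); negative values are upstream. The ribosomal protein genes are gathered at 250 to 450 bp upstream, and the other genes are spread more widely, with quartiles of 123 and 436 bp upstream.

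Most of the peaks could not be given to 1 gene. Of the 36 peaks, 26 (72.2%, 54.8 to 85.8) also lay in the promoter of another protein-coding gene, beside 33.9% of the 838 other promoter peaks. This touched 28 ribosomal protein genes, 15 of the 22 large and 13 of the 16 small subunit genes with a peak. A peak in several promoters has more chances to touch a ribosomal protein gene. The contrast with the 838 peaks is therefore raised by how the peaks were picked, and it is a description. The nearest partner pointed away from the ribosomal protein gene (head to head) in 25 genes. In the other 3 it ran on the same strand, and the ribosomal protein gene lay between it and the summit. The summit was nearer to the partner's start in 14 genes and nearer to the ribosomal protein gene's start in 14. Distance to the ribosomal protein gene was alike with and without sharing, at a median of 298 bp for shared and 288 bp for unshared peaks. The partners' starts lay at a median of 232 bp from the summit, and 14 of the 28 were 150 to 450 bp away beside 22 of the 28 ribosomal protein genes. That class was chosen from the distances of the ribosomal protein genes, so it favours them, and the contrast is a description. The genes rpl-36, rps-14, rpl-24.1 and rps-10 are also each other's partners and count on both sides.

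In 2 cases the partner was itself a ribosomal protein gene of the other subunit. The peak between rpl-36 and rps-14 (175.4 pooled, 120.7 in replicate 1, 51.73 in replicate 2) stood 412 bp upstream of rpl-36 and 251 bp upstream of rps-14. The peak between rpl-24.1 and rps-10 (82.78 pooled, 61.08 and 22.36 in the replicates) stood 225 bp upstream of rpl-24.1 and 385 bp upstream of rps-10. Another such pair, rpl-39 and rps-30, had its shared region just below the optimal set, 250 and 249 bp upstream. Each of these intervals thus holds a summit between a large and a small subunit gene.

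Several partners among the strong peaks act in other processes. The rpl-12 summit lay 380 bp upstream of lin-54, the DNA-binding subunit of the DREAM repressor complex. That of rps-1 lay 505 bp upstream of ifet-1, which encodes a repressor of translation. The rps-19 summit was nearer to hsr-9, the worm homologue of the DNA damage factor 53BP1, at 163 bp. The rpl-20, rpl-15, rps-15 and rps-28 summits fell in the promoters of Y17G9B.5, K11H12.8, F36A2.9 and Y41D4B.4. The last of these runs on the same strand as rps-28 and starts beyond it, 864 bp from the summit. At rps-12 both starts were about equally near, with ska-3, a kinetochore gene, at 135 bp. At rpl-7A the other gene was set-21 at 183 bp, which has a SET domain of the histone methyltransferase type.

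In other promoters the partner's start was much the nearer. The summit of rpl-31 lay 31 bp upstream of sac-2, that of rps-0 53 bp upstream of rbg-3, that of rps-29 58 bp upstream of snt-2 (a synaptotagmin) and that of rps-26 59 bp upstream of tmem-107. In these promoters the ribosomal protein gene was 274, 320, 509 and 398 bp away. The rps-18 summit lay 191 bp downstream of the start of sec-61.A, the channel of the ER translocon, and 606 bp upstream of rps-18. The rpl-43 summit, 747 bp from its gene, was 174 bp upstream of Y48B6A.1. Further partners were ify-1 (securin) for rpl-22 at 182 bp, dpm-3 (dolichol phosphate mannose synthesis) for rps-23 at 238 bp and mrpl-49 (mitochondrial ribosome) for rpl-28 at 173 bp. For rps-22 the summit was 134 bp from polh-1 (a translesion DNA polymerase) and 132 bp from rps-22. More distant partners were col-38 (a collagen) for rpl-5 at 427 bp, rab-11.1 (a GTPase of vesicle traffic) for rpl-7 at 538 bp and C34B7.1 for rpl-25.2 at 648 bp. On the same strand, swp-1 for rpl-23 and thoc-7 (an mRNA export factor) for rpl-29 were 900 and 784 bp away. Seen from the summit, both start beyond the ribosomal protein gene. When each peak was given only to the gene with the nearest start, 24 ribosomal protein genes kept a peak (16 large and 8 small), beside 4.15% of all genes.

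**Figure D4:**
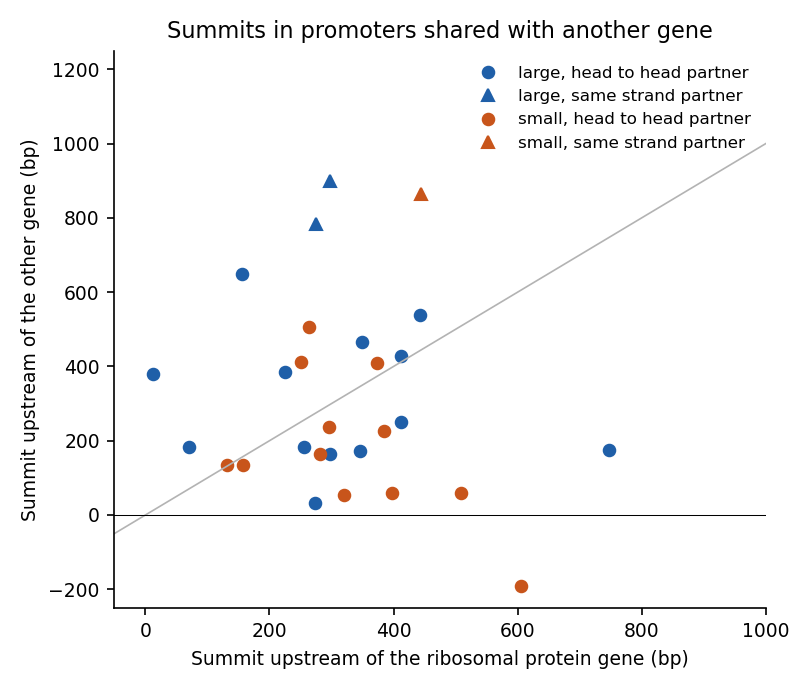
Distance of the summit upstream of the ribosomal protein gene and of the nearest other gene in whose promoter it lies, in bp, for the 28 ribosomal protein genes with a shared peak. Circles are head-to-head and triangles same-strand partners, blue large and orange small subunit genes, and the grey line marks equal distance; 14 points lie on either side of it.

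The 43 ribosomal protein genes without an optimal peak were of several kinds. In 25 of them a weaker region of the pooled list lay in the promoter, so 63 of the 81 genes (77.8%) had some pooled region, beside 39.6% of all genes. The shares were 79.0% beside 40.2% in replicate 1 (64 genes) and 75.3% beside 39.2% in replicate 2 (61 genes). The weaker regions ranked higher than those of other genes without an optimal peak, with a median rank of 7390 beside 13480. In 10 of the 25 genes (40.0%) the rank was 3000 or better, beside 10.3% of the other genes. Summits in these 25 genes had a median of 320 bp upstream, near the 298 bp of 6743 other genes with a weaker region only. The spread was narrower, with quartiles of 262 and 397 bp beside 49.0 and 635 bp. At 150 to 450 bp stood 17 of 25 (68.0%), beside 26.4% of those other genes. That class was chosen from distances of ribosomal protein genes. The genes rpl-39 and rps-30 share a region and were both counted. For 11 of the 25 genes the region had a summit within 100 bp in both replicates, for 11 in replicate 1 only and for 3 in replicate 2 only. The region of rps-6, for example, ranked 1508 pooled and 1540 in replicate 1, and the replicate 2 list had none in this promoter.

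The 3 stalk genes, whose proteins recruit translation factors to the ribosome, stood low. The best pooled region of rla-0 ranked 8723 and lay 964 bp upstream. That of rla-1 ranked 26028 at 321 bp, and rla-2 had none in any list. Of the 18 genes with no pooled region, 10 were large subunit genes (rpl-10, rpl-11.1, rpl-13, rpl-17, rpl-26, rpl-27, rpl-32, rpl-34, rpl-37 and rpl-42) and 7 small subunit genes (rps-2, rps-5, rps-7, rps-9, rps-11, rps-20 and rps-27). The last was rla-2. For 11 of the 18 no list held a region in the promoter, and 7 had one in a replicate list alone. Such an absence says only that no region reached the first 30000 of a list.

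One of the 7 was out of keeping with the rest. The promoter of rps-20 held a region of replicate 2 with a signal value of 126.2 and rank 133, 250 bp upstream of the start, while neither the pooled list nor replicate 1 had a region there. Among the strongest 500 regions of replicate 2, 9 had no pooled summit within 100 bp. The region of rps-20 is therefore given as seen in 1 replicate. The next highest were rps-11 in replicate 2 (rank 1479, 602 bp upstream) and rps-27 in replicate 1 (rank 1805, 567 bp upstream).

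The annotation holds 4 pairs whose names differ only in the digit after the point (rpl-11, rpl-24, rpl-25 and rpl-41). Of the 4 pairs, 3 had an optimal peak at one gene only and 1 at both, in a set where 46.9% of all genes had one. At rpl-11.2 the signal value was 235.7 pooled, 132.0 in replicate 1 and 98.36 in replicate 2, and rpl-11.1 had no region in its promoter and an optimal summit of rank 1278 at 1776 bp upstream, outside the window. At rpl-25.2 it was 144.6 pooled, 94.27 and 51.32 in the replicates, and rpl-25.1 had a region of rank 8287. At rpl-41.2 it was 202.1 pooled, 124.4 and 78.96 in the replicates, and rpl-41.1 had one of rank 28892; the summit of rpl-41.2 lay 846 bp downstream of the start of rpl-41.1. In the fourth pair both had a peak, rpl-24.2 at 411.6 and rpl-24.1 at 82.78.

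The ground upstream was set beside the peaks. The gap to the next protein-coding gene had a median of 609 bp in the 38 genes with a peak and 527 bp in the 43 without. A neighbour on the same strand within 500 bp, the arrangement of genes inside a C. elegans operon, was found in 9 of the 43 and in 0 of the 38. The 9 were rla-1, rpl-16, rpl-19, rpl-25.1, rpl-27, rps-2, rps-7, rps-16 and rps-17. Over all protein-coding genes, those with such a neighbour had an optimal peak in 4.46% of 4105 cases, those with a same-strand neighbour farther away in 3.02% and those with an opposite-strand neighbour in 8.18%. Among the ribosomal protein genes the shares for the last 2 classes were 52.9% of 17 and 52.7% of 55. In 2 of the 9, the promoter of the neighbour held an optimal peak. The gene before rps-16 is fib-1 (fibrillarin, which methylates ribosomal RNA), 109 bp away, and its peak had a pooled signal value of 178.6 (rank 431), 78 bp upstream of fib-1 and 1760 bp upstream of rps-16. The gene before rpl-25.1 is glit-1, with a peak of rank 1016 that stood 168 bp upstream of glit-1.

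Sequence around the summits was set beside that of other promoter regions, in windows of 101 bp, on both strands. The C/EBP type words TTGCNNAA and TTACNNAA were found in 4 of the 36 ribosomal protein peaks (95% interval 3.11% to 26.1%), beside 27.9% of the 838 other promoter peaks (24.9 to 31.1) and 15.6% of 8016 weaker pooled promoter regions. The 4 were at rpl-35, rpl-43, rps-18 and rpl-28. The form TTGCGAAA, one of these words, was in 2 (5.56%, 0.680 to 18.7), rpl-35 and rpl-43, beside 17.5% of other peaks (15.0 to 20.3) and 1.50% of weaker regions. The intervals of the first pair of shares overlap little and those of the second overlap. A match says only that the letters are in the window. The share moved with the width searched: within 100 bp of the summit it was 36.1% beside 41.2%, and within 25 bp 2.78% beside 17.1%. Of the other words searched, CACGTG was in 1 peak (rps-29), AGATAA in 1 (rpl-31), and TTGCGCAA, TGACGT and GAGAGAGA in 0. In other promoter peaks those 5 were found in 3.22%, 3.82%, 1.43%, 5.73% and 4.18%. The windows were richer in G and C, with a median of 50.5% beside 46.5% in other peaks and 38.6% in weaker regions.

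Out of 2320 words of 7 bases in the windows of the ribosomal protein peaks, ACACTCG had the largest difference in percent from the other promoter peaks. By the ratio of the shares, rarer words such as CTGAGTA (16.7% beside 0.597%) stood higher. ACACTCG was chosen for its difference in percent, so its shares are a description with no test. It was in 11 of the 36 peaks (30.6%), in 14 of the 838 other promoter peaks (1.67%) and in 0.624% of weaker regions. The 12 genes were rpl-3, rpl-20, rpl-15, rpl-24.2, rpl-11.2, rpl-22, rpl-29, rps-23, rpl-6, rps-29 and the pair rpl-24.1 and rps-10, among them 3 of the 4 strongest. It stood at a median of 22.0 bp from the summit, on the gene's strand in 3 genes and on the opposite strand in 9. The word GTGTNACCG, noticed in the sequences and overlapping CGAGTGT by 4 bases in most of them, was in 9 peaks (95% interval 12.1% to 42.2%), beside 1.07% of other promoter peaks and 0.112% of weaker regions. The words that came next were GCGAGAC in 9 peaks, beside 5.37% of other promoter peaks, and TACCGTA in 8 peaks (22.2%), beside 3.70%. Of the 36 peaks, 21 held at least 1 of these 3 words of 7 bases, beside 9.55% of other promoter peaks. All 3 were picked from the 2320 words by their difference in these same peaks. A high share was therefore built into the choice, and these counts are a description with no test.

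The words were also searched at 150 to 450 bp upstream of the genes, whether or not a peak was there. Since they were picked from the peak windows, a higher share in the genes with a peak is a description. From 150 to 450 bp upstream of the nearest start, ACACTCG was in 11 of the 38 genes with a peak (28.9%), in 5 of the 43 without (11.6%) and in 1.60% of all protein-coding genes. The word GTGTNACCG was in that window of 68 protein-coding genes (0.340%), and 14 of them were ribosomal protein genes: 8 with a peak (rpl-6, rpl-11.2, rpl-22, rpl-24.1, rpl-29, rpl-38, rps-10 and rps-23) and 6 without (rpl-1, rpl-21, rpl-34, rps-7, rps-13 and rps-17). Of these 6, rpl-21 ranked just below the optimal set at 1308, rps-17 ranked 1597, rpl-1 ranked 2730 and rps-13 ranked 7390. The genes rpl-34 and rps-7 had no pooled region. Head-to-head genes, such as rpl-24.1 and rps-10, can be counted for the same copy of the word. The C/EBP type words were in 42.1% of the genes with a peak, 53.5% of those without and 46.0% of all genes in that window.

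Other gene groups were set beside the ribosomal protein genes by their share with an optimal peak. It was 36.0% (18.0 to 57.5) for 25 translation initiation factor genes (eif-), 18.2% (6.98 to 35.5) for 33 proteasome genes and 14.3% (7.07 to 24.7) for 70 genes of the mitochondrial ribosome (mrpl- and mrps-). The interval of the cytosolic ribosomal protein genes, 35.7 to 58.3, overlaps that of the initiation factors. It lies above that of the mitochondrial ribosome and only just above that of the proteasome, whose upper end is 35.5.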

How the data were processed

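ZIP-4-EGFP ChIP-seq of 2 biological replicates was deposited as 4 narrowPeak lists on ce11, per the labels: 30000 regions each for replicate 1, replicate 2 and the pooled reads, and the optimal set of 1290 peaks. Per the files' accompanying notes, the regions were input to the irreproducible discovery rate method and both replicates used the same control alignment. The labels' antibody field names zip-4 and their description names GFP; the description is followed. The aligner, the peak caller and the treatment of reads that map to several places were not stated in the sources used here; the same holds for sequencing depth, so no value carries one. The signal value and the −log10 q-value are columns that the authors deposited; the scale of the signal is not stated, so it was compared within a list and by rank or correlation between lists. The summit is the deposited start plus the deposited offset. The 1290 optimal peaks are the 1290 pooled regions of highest signal value.

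Genes came from Ensembl release 115 (WBcel235) and sequence from the RefSeq copy of the same assembly, with Python 3.11.15, numpy 2.4.6 and scipy 1.17.1. Where a promoter held several regions, the strongest was used. Summits within 100 bp counted as the same region. Partners are the other protein-coding genes whose promoter holds the summit. Words were searched within 50 bp of the summit. No p-values are given; shares have 95% Clopper-Pearson intervals, which cover counting over genes or peaks only. The scripts were tested on simulated data. Genes and lists were chosen with earlier results of these data known. Named are the 12 strongest genes, the rla- genes, genes that share a summit, pairs whose names differ after the point, genes without a pooled region and the 5 entries just below the optimal set. Alternatives were other peak sets, each replicate alone, other promoter widths, starts and positions, and other word windows. The peaks among the strongest of both replicates, the words of 7 bases, the word GTGTNACCG and the class of 150 to 450 bp were added after the data were seen.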

Additional observations from a re-analysis of the deposited data

How the results depend on the processing

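The count of 38 ribosomal protein genes became 24 when each peak went to the nearest start only and 25 with the 645 stronger peaks of the optimal set; for the small subunit the 16 became 8 and 10. Over the other alternatives the count ran from 28, for peaks among the strongest of both replicates, to 40, and without replicate 1 or 2 it was 32 and 36. The large subunit count ran from 15 to 23. The share of all genes, 5.70%, was 7.24% with 2000 bp upstream, 5.34% with the 5′ end of the gene only, 4.46% with 500 bp upstream and 100 bp downstream, 4.15% with the nearest start only, 4.25% for peaks among the strongest of both replicates, 6.21% for q-values of 0.05 or less, 3.30% for the stronger peaks, and 5.33% to 5.74% with 1 replicate left out. The share of peaks with a C/EBP type word (4 of 36) became 36.1% within 100 bp and 2.78% within 25 bp of the summit; a wider window holds more words by its construction. The median distance stayed between -289 and -298 bp, the genes with a shared summit ran from 19 to 35, and ACACTCG from 16.7% to 33.3%.

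The limits are few samples of 1 group, an unstated depth and signal scale, no untagged strain, and lists of fixed length, in which the weakest regions are near background. No paired analysis was possible because there was 1 group and the result comes from no test.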

Other observations

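Outside the ribosomal protein genes, 14 optimal promoter peaks held ACACTCG near the summit. The strongest was at egg-5, an egg activation gene, with a pooled signal value of 772.6 (rank 28), 558 bp upstream. At epn-1, the endocytic adaptor epsin, it was 334.0 (rank 143), at ndk-1, a nucleoside diphosphate kinase, 289.2 (rank 198), and at cox-5B, a subunit of cytochrome c oxidase, 229.1 (rank 282). A peak between npp-3, a nuclear pore gene, and top-2, a DNA topoisomerase, had 215.7 (rank 315), and the peak between trap-2, of the ER translocon-associated complex, and ile-2 had 88.32 (rank 1116).

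The word GTGTNACCG lay 150 to 450 bp upstream of 54 genes that are no ribosomal protein genes. Of these, 14 had an optimal peak in the promoter, beside 5.53% of all genes outside the ribosomal protein set. The word was noticed in ribosomal protein peaks, and the peaks of ify-1 and dpm-3 are those of rpl-22 and rps-23. The genes trap-2 and ile-2 also share a peak, so the counts are a description with no test. Between head-to-head neighbours the windows of 150 to 450 bp can overlap, so a single copy of the word can count for both genes. Several of the 54 genes stand head to head with a ribosomal protein gene that was also counted for the word. They are ify-1 with rpl-22, dpm-3 with rps-23, C14B9.10 with rpl-21, Y71F9AL.9 with rpl-1, nfx-1 with rps-13 and ppm-1.H with rpl-34. Another, Y37E3.8, is the gene 105 bp before rla-1 on the same strand. Others with a peak were irg-2 (rank 14), ntl-2, of the CCR4-NOT complex (rank 301), rpb-3, of RNA polymerase II (rank 1187), and rsp-6, an SR splicing factor (rank 859). The translation initiation factor gene ife-3 had a region of rank 1807.

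Small nucleolar RNA genes, which guide changes to ribosomal RNA, lay inside 13 of the 81 ribosomal protein genes. Of these 13 genes, 9 had an optimal peak, beside 38 of all 81 (46.9%). The share over all protein-coding genes that hold a snoRNA gene was not computed. Only 1 of the 36 peaks, that of rps-26, had a tRNA, snRNA or snoRNA gene within 200 bp of its summit, beside 6.68% of other promoter peaks. By chromosome, 10 of 25 ribosomal protein genes had a peak on I, 3 of 10 on II, 12 of 18 on III, 10 of 18 on IV, 2 of 8 on V and 1 of 2 on X. The shares over all protein-coding genes of these chromosomes were 7.09%, 5.33%, 9.20%, 5.15%, 4.43% and 4.28%, so III had the highest share among all genes too.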
